A study of Mus musculus with 6 samples.

Results

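The genes described here are 55 enzymes and regulators of glutathione and antioxidant metabolism, out of 46603 genes with counts. They were chosen by symbol, and each of the 55 symbols matched exactly 1 Ensembl gene in the deposited tables. RNA came from primary enamel organ cells taken from lower incisors of the mouse strain C57BL/6, with 3 libraries labelled as Stim1/2 knockout (DKO, replicates 1, 3 and 4) and 3 labelled as wild type (WT, replicates 1, 2 and 3). STIM1 and STIM2 are the calcium sensors of the endoplasmic reticulum that switch on store-operated calcium entry. The age of the mice, how the 2 genes were deleted and whether each library came from a separate animal are not given in the labels. A p-value here therefore speaks only for the spread among these libraries, which may be technical.

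Glutathione is a tripeptide that cells make from glutamate, cysteine and glycine and use as their main soluble reductant. Peroxidases spend it to reduce peroxides, transferases attach it to reactive molecules, and glutathione reductase returns it to its reduced form. Thioredoxins and peroxiredoxins form a parallel route, and the transcription factor NRF2 (Nfe2l2), held back by KEAP1, induces many genes of both. In rodent incisors the enamel-forming ameloblasts secrete large amounts of protein and later handle iron, both of which are known sources of oxidants.

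The libraries held between 18609759 and 22829411 counts. Levels below are counts per 1e6 after TMM scaling (CPM) where 1 gene is compared between libraries, and transcripts per 1e6 (TPM), rescaled from the deposited FPKM, where genes are compared with each other, since TPM accounts for length. The knockout libraries kept 29.6% of the wild-type mean of Stim1 (edgeR adjusted p = 0.00553) and 46.8% of that of Stim2 (0.018). The 7 ameloblast markers, Amelx and Ambn among them, summed to 95830 CPM or more in every library. Xist reached 488 CPM or more in DKO 1, WT 1 and WT 2 and was no higher than 1.22 CPM in the remaining libraries, so the sexes were mixed within both genotypes, unequally.

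Within each genotype 1 library had both the highest sum of matrix transcripts and the lowest sum of mesenchyme markers. DKO 3 and WT 2 had the highest summed secretory-stage matrix transcripts of their groups (Amelx, Ambn and Enam), at 180600 CPM against 116000 and 116100 CPM in the other DKO libraries, and at 138700 CPM against 69630 and 109000 CPM in the other WT libraries. They also had the lowest sums of mesenchyme markers, at 10950 CPM in DKO 3 and 7076 CPM in WT 2. Of the 54 tested members, 24 (44.4%) were lowest in DKO 3 among the DKO libraries and lowest in WT 2 among the WT libraries, as were 16.8% of all tested genes. For 8 members the same 2 libraries were the highest, as they were for 13.6% of all tested genes. The first of these counts was singled out after the values were seen. That one covered 9 of 15 cytosolic transferases, 5 of 8 synthesis and recycling genes, 4 of 5 NRF2, quinone and heme genes and 0 of 6 thioredoxin and glutaredoxin genes. The part of the marker sums in it was not tested. In bulk RNA fewer cells of a type and less RNA per cell cannot be told apart.

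The DNA beside the start sites of these genes was examined for the motif through which NRF2 acts, to show which members carry it and whether they differed from the rest. The antioxidant response element core, TGACNNNGC on either strand, was searched in windows of 300 bases, from 250 before to 50 after each RefSeq start site (GRCm38.p6). Windows were found for 47 of the 55 members, some of which have several start sites, and 11 members (23.4%) held the core: Gclm, Ggct, Ggt1, Gsta3, Gstm5, Mgst1, Nfe2l2, Prdx1, Sod1, Srxn1 and Txnrd1. Of all genes with a window, 14.0% held the core. No window was available for Gclc, Ggt5, Gsr, Gsta4, Gstt2, Hmox1, Prdx6 and Sod3, so these were not searched. The 4 windows printed here are those of Gclm, a subunit of the enzyme that limits glutathione synthesis (chr3:122245307-122245606, plus strand), Prdx1, the most abundant peroxiredoxin gene here (chr4:116685349-116685648, plus strand), Txnrd1, the cytosolic thioredoxin reductase gene (chr10:82858956-82859255, plus strand), and Ggct, which holds 2 matches (chr6:54992818-54993117, minus strand). Capitals mark the matches, and the first base of each line is the one farthest upstream.
Gclm: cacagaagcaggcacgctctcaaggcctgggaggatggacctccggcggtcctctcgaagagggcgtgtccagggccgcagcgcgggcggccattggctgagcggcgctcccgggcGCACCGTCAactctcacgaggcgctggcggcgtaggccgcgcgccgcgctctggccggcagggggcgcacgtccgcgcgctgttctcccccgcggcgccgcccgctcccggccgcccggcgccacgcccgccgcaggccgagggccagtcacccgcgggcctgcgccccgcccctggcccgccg
Prdx1: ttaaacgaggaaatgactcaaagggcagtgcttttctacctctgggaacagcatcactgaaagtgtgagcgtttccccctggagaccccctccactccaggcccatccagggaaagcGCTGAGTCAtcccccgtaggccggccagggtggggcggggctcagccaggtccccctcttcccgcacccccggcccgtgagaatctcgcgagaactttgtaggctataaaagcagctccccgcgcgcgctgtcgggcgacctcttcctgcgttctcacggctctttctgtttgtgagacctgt
Txnrd1: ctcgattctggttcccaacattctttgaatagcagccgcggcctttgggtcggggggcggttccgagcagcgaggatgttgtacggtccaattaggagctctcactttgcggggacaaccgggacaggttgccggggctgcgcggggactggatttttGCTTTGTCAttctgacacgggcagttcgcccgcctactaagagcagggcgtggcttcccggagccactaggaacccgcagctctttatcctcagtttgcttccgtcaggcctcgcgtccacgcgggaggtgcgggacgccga
Ggct: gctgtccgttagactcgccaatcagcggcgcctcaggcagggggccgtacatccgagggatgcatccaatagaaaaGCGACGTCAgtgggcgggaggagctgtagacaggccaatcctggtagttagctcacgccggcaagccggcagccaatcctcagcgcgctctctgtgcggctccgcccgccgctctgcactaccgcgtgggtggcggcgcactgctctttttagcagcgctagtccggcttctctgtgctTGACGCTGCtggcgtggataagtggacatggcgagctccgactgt
The 11 members with the core had a median log2 fold change (DKO against WT) of 0.12, with 7 of 11 above 0. The 35 tested members with a window and no match had a median of 0.11, with 23 of 35 above 0. A match is a description of the sequence, and a window without one says only that these letters are not in it.

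In wild-type enamel organ cells the most abundant member was Gpx3, the secreted plasma glutathione peroxidase, at 1975 ± 139 TPM, above 99.7% of tested genes. Next came Gsta4, a transferase for lipid aldehydes, at 762 ± 359 TPM, and Prdx1, the main cytosolic peroxiredoxin, at 711 ± 72.1 TPM. Gpx1, the cytosolic peroxidase, followed at 479 ± 40.5 TPM, Ggt1, which splits glutathione outside the cell, at 425 ± 91.0 TPM, and Prdx2, another cytosolic peroxiredoxin, at 404 ± 44.2 TPM (SD, n = 3 each). The WT libraries of Gsta4 overlapped those of Prdx1, Gpx1 and Ggt1, and those of Gpx1, Ggt1 and Prdx2 overlapped each other. The order of genes that overlap lies inside their spread. Lowest were Gsta2, at 1.96 ± 1.54 TPM, Sod3, the extracellular superoxide dismutase, at 0.181 ± 0.111 TPM, and Gstm3, with 0 counts in all 6 libraries. Gstm3 did not pass the low-count filter and is the 1 member left out of the tests.

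By role, the 6 glutathione peroxidases together made 2998 ± 187 TPM in WT, the 7 peroxiredoxin and sulfiredoxin genes 1541 ± 72.3 TPM and the 16 cytosolic transferases with Gstk1 1482 ± 456 TPM. The 8 genes of synthesis and recycling made 697 ± 127 TPM, the 6 thioredoxin and glutaredoxin genes 474 ± 21.0 TPM, the 4 dismutase and catalase genes 386 ± 12.0 TPM and the 3 microsomal transferases 72.6 ± 4.08 TPM (SD, n = 3 each). The transferases varied most between WT libraries and the dismutases least, relative to their sums.

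**Figure D1:**
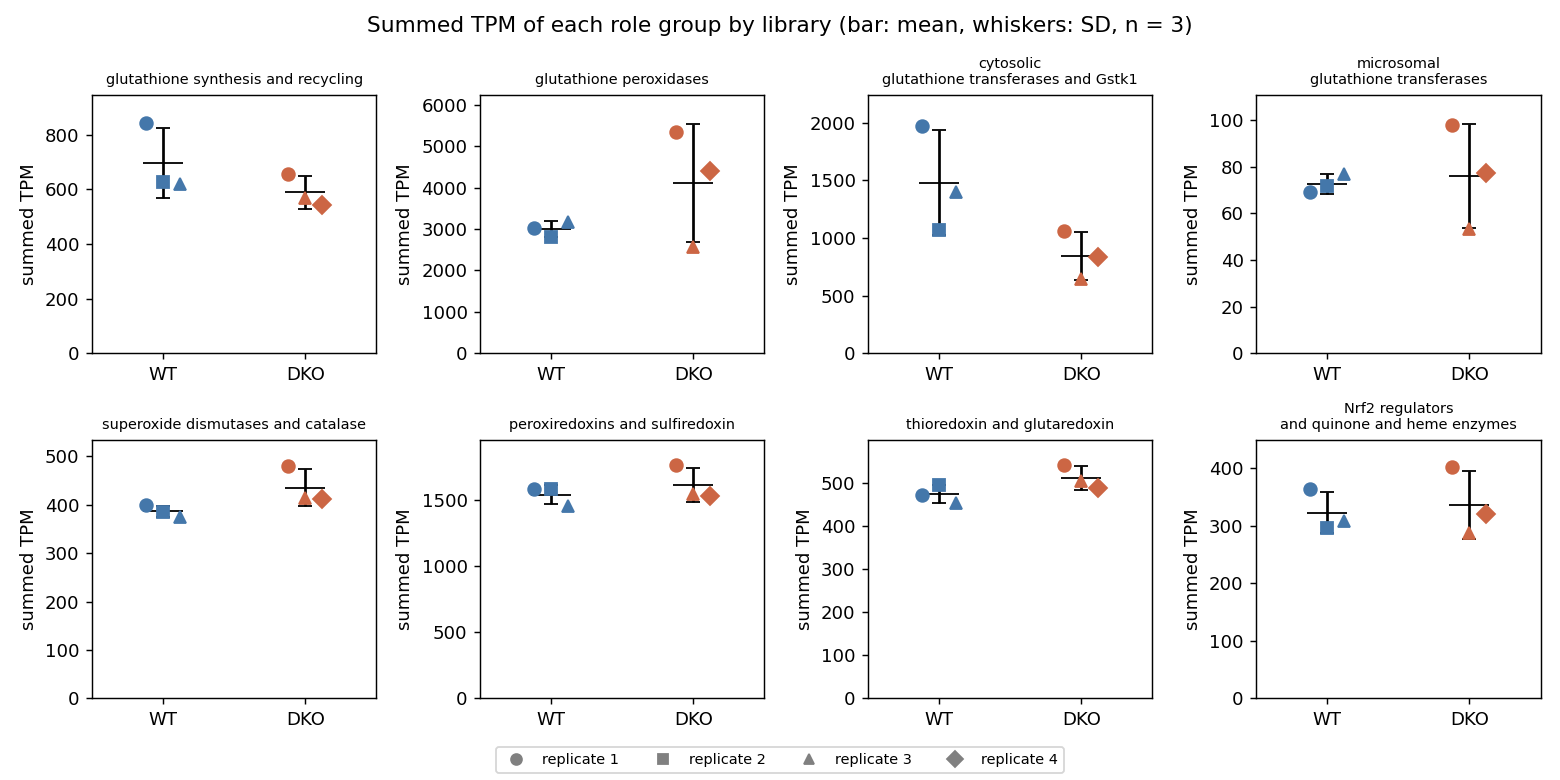
Summed TPM of the members of each role group in each library, WT in blue and DKO in orange, with the mean (bar) and SD (whiskers, n = 3) and 1 symbol per replicate number. The cytosolic transferases lie between 1071 and 1973 TPM in WT and between 648 and 1062 TPM in DKO, while the thioredoxin and peroxiredoxin groups overlap.

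The comparison of DKO with WT asked which of these enzymes differ when the 2 calcium sensors are reduced. None of the 54 tested members was called by edgeR's quasi-likelihood test at an adjusted p below 0.05, in either direction. Of all tested genes 1.04% were called, 0.734% higher and 0.306% lower, so 0 calls among 54 is near the background. At an unadjusted p below 0.05 there were 11 members, or 20.4% against 18.0% of all tested genes. Of these 5 were higher and 6 lower in DKO, directions that 8.67% and 9.37% of all tested genes took. The groups did not overlap for 12 members, or 22.2% against 23.3%, with 6 in each direction against 11.4% of all tested genes higher and 11.8% lower.

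The DESeq2 Wald test called 3 members, Gsta4, Ggt1 and Gpx7, at a background of 5.52%. Without a low-count filter edgeR called the same 3, at a background of 2.19%, and without DKO 3 and WT 2 it called Gsta4, at a background of 0.818%. The median log2 fold change of the members was 0.09, with 35 of 54 above 0, and that of all tested genes was -0.01, with 48.7% above 0. By library, the median log2 deviation of members from the WT mean was 0.11, -0.02 and 0.10 in DKO 1, 3 and 4. In WT 1, 2 and 3 it was 0.06, -0.14 and 0.01, so the groups overlapped, with an SD of 0.09 between libraries. Scaled by total counts, which moved the median of all genes to -0.06, 29 members lay above 0. The 95% interval of the log2 fold change lay within a 2-fold change either way for 42 members (77.8%), against 78.0% of all tested genes.

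**Figure D2:**
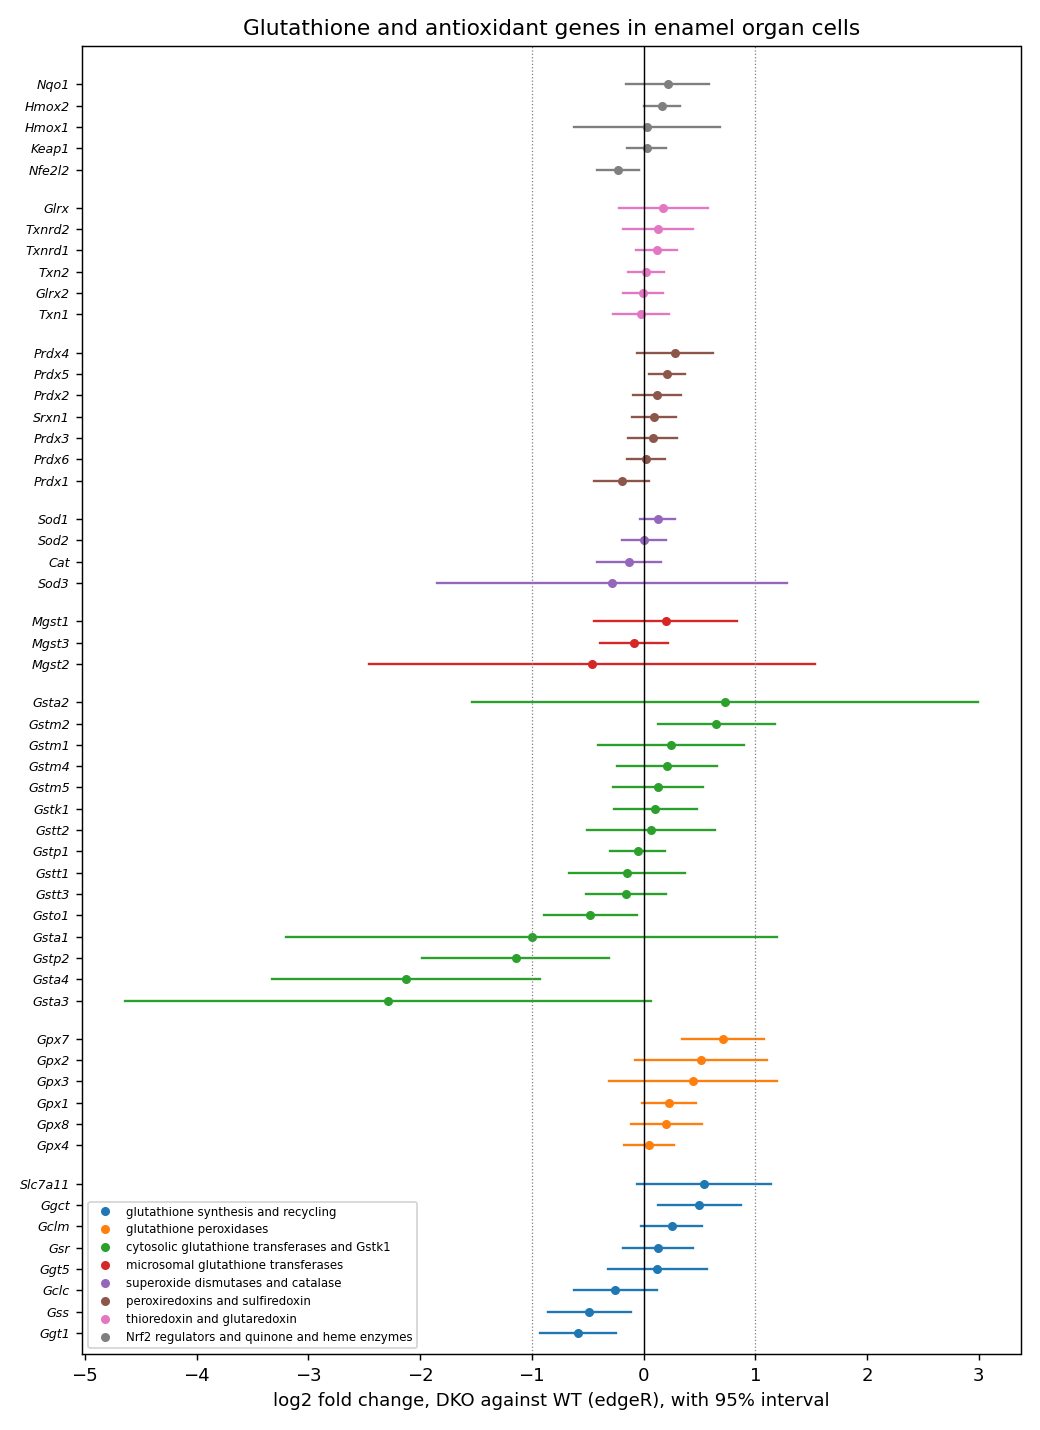
Log2 fold change of each of the 54 tested members, DKO against WT, with its 95% interval from the edgeR fit, coloured by role group. The solid line is no change and the dotted lines are 2-fold. Gsta3 and Gsta4 lie farthest to the left, and the intervals of the thioredoxin, peroxiredoxin and NRF2 groups stay within the dotted lines.

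Of the 8 genes that make, import, split or recycle glutathione, 0 were called, 5 had a log2 fold change above 0 and the median was 0.13. Ggt1 (chromosome 10) was measured at 538, 372 and 404 CPM in WT 1, 2 and 3 and at 305, 272 and 298 CPM in DKO 1, 3 and 4. All DKO libraries were thus below all WT libraries (log2 fold change -0.59, SE 0.15, edgeR adjusted p = 0.106). Gss, glutathione synthetase, is described because of its value. Its WT libraries held 87.7, 56.9 and 69.7 CPM and its DKO libraries 54.3, 44.4 and 54.5 CPM, a gap smaller than the spread within WT (log2 fold change -0.48, SE 0.16, adjusted p = 0.182). Without WT 1 the value was -0.31. Exons of Gss overlap those of Acss2 and 2 antisense genes on the opposite strand, and the library kit does not mark strand.

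The first step of synthesis is shared by Gclc, the catalytic subunit, and Gclm, its modifier. Their log2 fold changes had opposite signs, at -0.25 and 0.25, with intervals that included 0. Slc7a11, the cystine importer that supplies cysteine, ranged over 71.0, 105 and 48.6 CPM in the wild type and 91.2, 127 and 109 CPM in the knockout, so the groups overlapped (0.54, interval -0.06 to 1.14). Its value ran from 0.31 without WT 3 to 0.87 without WT 2. Ggct, which breaks down gamma-glutamyl peptides, was low in WT, at 4.45, 4.22 and 4.27 CPM, and somewhat less so in DKO, at 5.17, 6.57 and 6.58 CPM. Its groups did not overlap (log2 fold change 0.50, SE 0.16, adjusted p = 0.176).

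Glutathione reductase, Gsr, returns oxidised glutathione to its reduced form. Its WT libraries held 129, 89.7 and 100.4 CPM and its DKO libraries 119, 107 and 123 CPM, all within the WT range. The summed level of the 8 genes was 697 ± 127 TPM in WT and 588 ± 59.5 TPM in DKO (SD, n = 3 each), and Ggt1 made most of it in both.

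All 6 glutathione peroxidases had a log2 fold change above 0, with a median of 0.33, and 0 of 6 were called. Gpx4 was below 0 with total-count scaling, without WT 2, and without DKO 3 and WT 2 together. Gpx7, a peroxidase of the endoplasmic reticulum that takes part in oxidative protein folding, had 9.84, 7.61 and 11.2 CPM in the WT libraries and 17.0, 15.1 and 14.9 CPM in the DKO libraries. Every DKO library was above every WT library (log2 fold change 0.71, SE 0.16, interval 0.35 to 1.08, edgeR adjusted p = 0.0854). Gpx8, the other peroxidase of that compartment, had 37.9, 30.5 and 33.9 CPM in WT 1, 2 and 3 and 46.3, 33.1 and 38.5 CPM in DKO 1, 3 and 4, and its groups overlapped (0.20, adjusted p = 0.481). Sums of 11 mesenchyme markers ran from 7076 to 11760 CPM over WT and from 10950 to 13870 CPM over DKO, with 11 of 11 above 0 and 0 called. Sums of 13 leukocyte markers ran from 273 to 402 and from 392 to 579 CPM, with 13 of 13 above 0 and 0 called. None of these markers was at 0 counts throughout, and their part in the peroxidase values was not tested.

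The value of Gpx3 moved with the DKO library left out. WT libraries held 1851, 1663 and 2057 CPM, and DKO 1 and DKO 4 held 3298 and 2989 CPM, but DKO 3 held 1272 CPM, less than every WT library. The log2 fold change was 0.44 (SE 0.32, adjusted p = 0.524), and 0.76 without DKO 3 (adjusted p = 0.149), 0.21 without DKO 1 and 0.30 without DKO 4. Gpx2, known from gut epithelium, was also lowest in DKO 3 among the knockouts, at 117, 65.3 and 130.4 CPM for DKO 1, 3 and 4 against 83.7, 78.7 and 56.8 CPM for WT 1, 2 and 3. Gpx1 had 203, 183 and 223 CPM in the WT libraries and 215, 245 and 253 CPM in the DKO libraries, which overlapped (0.23, adjusted p = 0.303). Gpx4, which reduces lipid peroxides in membranes, had an interval from -0.17 to 0.27 on the log2 scale, and 36.9% of its transcript's 150-base windows recur in the pseudogene Gpx4-ps2.

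Together the 6 peroxidases made 2998 ± 187 TPM in WT and 4104 ± 1418 TPM in DKO, the wide DKO spread being that of Gpx3. The 5 others summed to 1023 ± 52.7 TPM over WT and 1248 ± 80.5 TPM over DKO (SD, n = 3 each). This sum leaves out the gene whose DKO 3 value lay below every WT library. On it the groups did not overlap, at 962 to 1056 against 1159 to 1314 TPM, with no share over all genes to set beside it. The TPM of all genes were by their median 0.08 higher in DKO on the log2 scale. Against the mean of all libraries DKO 1 stood at 0.16 and WT 3 at -0.10, and the sums were not corrected for this.

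**Figure D3:**
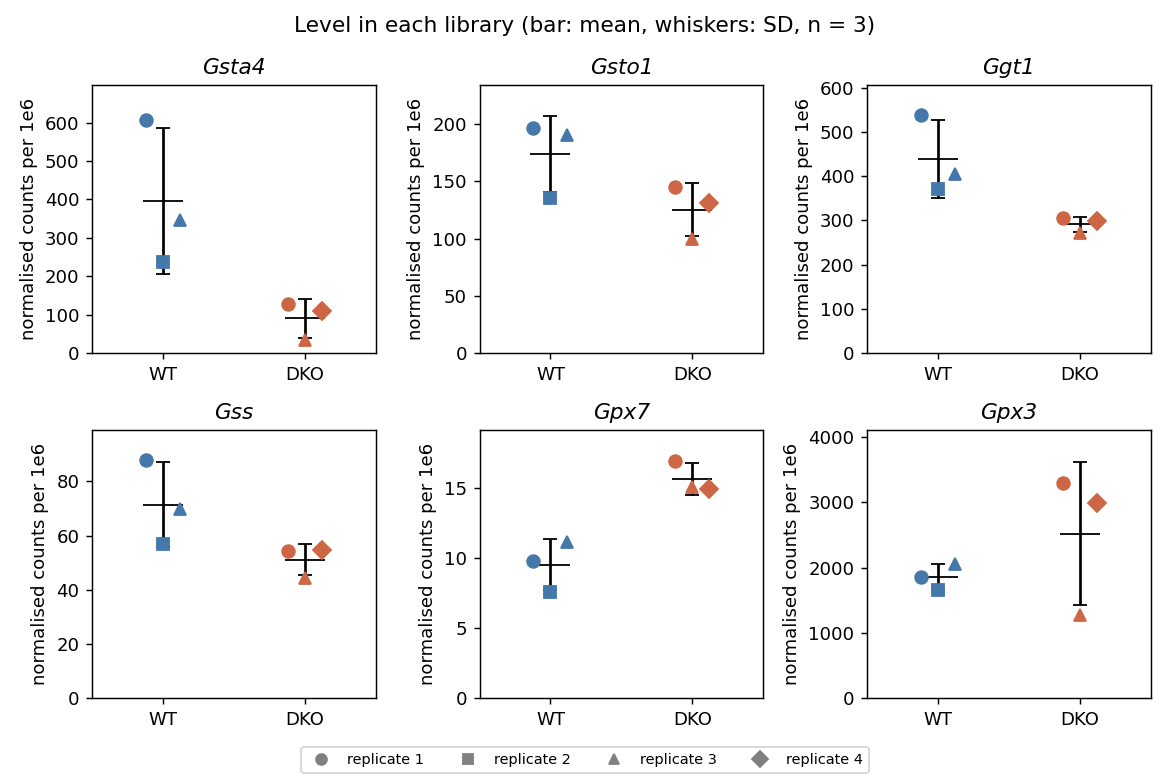
CPM of 6 members in each library, with the mean (bar) and SD (whiskers, n = 3) and 1 symbol per replicate number. Gsta4, Ggt1 and Gss, the last chosen after its values were seen, lie lower in all DKO libraries and Gpx7 higher. The groups of Gsto1 overlap, and DKO 3 alone lies below WT for Gpx3.

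The cytosolic transferases held the widest differences. Of 15 tested, 7 had a log2 fold change above 0 and 8 below, with a median of -0.05, and 0 were called. Gsta4 had 606, 237 and 346 CPM in WT 1, 2 and 3 and 128, 33.5 and 111 CPM in DKO 1, 3 and 4. Each DKO library lay below each WT library, and the fitted level was 4.36-fold lower (log2 fold change -2.12, SE 0.52, interval -3.33 to -0.92, edgeR adjusted p = 0.103). With no overlap, that order must hold in any split of the libraries, so a split by Xist level could not have come out otherwise. The part of sex in the Gsta4 difference was not tested.

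Whether Gsta4 passed depended on the test. It passed by DESeq2 (adjusted p = 0.0306), by edgeR without a low-count filter (0.0111) and by edgeR without DKO 3 and WT 2, a choice made after seeing the data (0.0472). With any 1 library left out it missed, at an adjusted p from 0.0737 to 0.256, and the highest value was 0.329, by limma on FPKM without a filter. The 11 oral keratinocyte markers moved with it: they summed to 262 to 457 CPM over WT and 70.4 to 123 CPM over DKO, with 0 of 6 tested markers above 0 and 1 called lower. The 8 dental epithelium markers summed to 9198 to 10690 CPM over WT and 7241 to 7439 CPM over DKO. Of these 8, 3 lay above 0 and 1 was called lower, with a median log2 fold change of -0.21. No marker of either list was at 0 counts throughout, and their part in the Gsta4 difference was not tested.

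Other alpha-class genes were below Gsta4 in every library and uneven, and are described here because of their values. Gsta3 had 610, 53 and 649 counts in WT 1, 2 and 3 and 171, 8 and 49 counts in DKO 1, 3 and 4. WT 2 thus lay among the DKO libraries, and the interval of the log2 fold change ran from -4.64 to 0.07. Gsta1 had 191, 36 and 79 counts in WT and 93, 1 and 36 in DKO, and Gsta2 25, 2 and 16 in WT and 40, 1 and 20 in DKO. For all 4 alpha-class genes DKO 3 was the lowest library and WT 2 the lowest of WT. Of the windows of Gsta1, 73.7% recur in Gsta2 or 2 other genes, so the division of its reads is uncertain.

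Gsto1, an omega-class transferase that reduces dehydroascorbate, had 196, 136 and 190.2 CPM in the wild type and 145, 99.6 and 131 CPM in the knockout. DKO 1 exceeded WT 2, so the groups overlapped (log2 fold change -0.47, SE 0.18, adjusted p = 0.223). In the mu class, Gstm2, named for its value, had 7.59, 5.48 and 8.28 CPM in WT libraries and 14.3, 8.71 and 10.6 CPM in DKO libraries, with no overlap (log2 fold change 0.65, adjusted p = 0.197). Gstm1, Gstm4 and Gstm5 had log2 fold changes from 0.13 to 0.25, Gstt1, Gstt2 and Gstt3 of the theta class from -0.16 to 0.07, and the mitochondrial and peroxisomal transferase Gstk1 of 0.11, with overlapping groups in each. Summed over the 16 genes, DKO held 848 ± 208 TPM and WT 1482 ± 456 TPM (SD, n = 3 each), of which Gsta4 made 188 and 762 TPM.

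The 3 microsomal transferases, membrane proteins of a separate family, had intervals that included 0. Mgst1 had 6.62, 7.12 and 5.71 CPM in WT and 8.98, 4.33 and 8.99 CPM in DKO, and Mgst3 had 26.0, 30.3 and 32.1 CPM and 28.1, 23.5 and 31.6 CPM, with DKO 3 the lowest of all libraries for both. Mgst2 had 79, 11 and 103 counts in WT and 87, 9 and 24 counts in DKO, with WT 2 and DKO 3 again the lowest of their groups.

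The pi-class pair Gstp1 and Gstp2 shows how the counting bears on these values. The genes lie side by side on chromosome 19, and their coding sequences of 633 bases differ at 12 positions, so 98.1% of bases are identical, with an unbroken identical run of 303 bases. The first 150 coding bases are printed because they hold 6 of the 12 differences, which are in capitals.
Gstp1: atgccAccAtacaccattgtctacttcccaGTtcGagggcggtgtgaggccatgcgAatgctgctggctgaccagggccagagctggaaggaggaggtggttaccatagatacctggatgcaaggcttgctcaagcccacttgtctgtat
Gstp2: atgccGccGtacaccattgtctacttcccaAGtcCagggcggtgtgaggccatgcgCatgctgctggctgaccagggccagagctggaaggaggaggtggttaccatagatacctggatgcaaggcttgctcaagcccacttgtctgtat
By counts, Gstp2 had 49, 26 and 36 counts in WT and 18, 9 and 16 in DKO, from 2.51% to 3.10% of the Gstp1 count in WT and from 0.809% to 1.54% in DKO. By FPKM it stood at 28.0% to 31.0% of Gstp1 in every library. The log2 fold change of Gstp2 was -1.14 on counts (SE 0.36, edgeR adjusted p = 0.169) and -0.09 on log2(FPKM + 1) in limma, so its change is uncertain. Gstp1 had 67.1, 50.2 and 62.1 CPM in the WT libraries and 58.5, 56.7 and 58.0 CPM in the DKO libraries, with a log2 fold change of -0.05 (0.04 without WT 1).

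**Figure D4:**
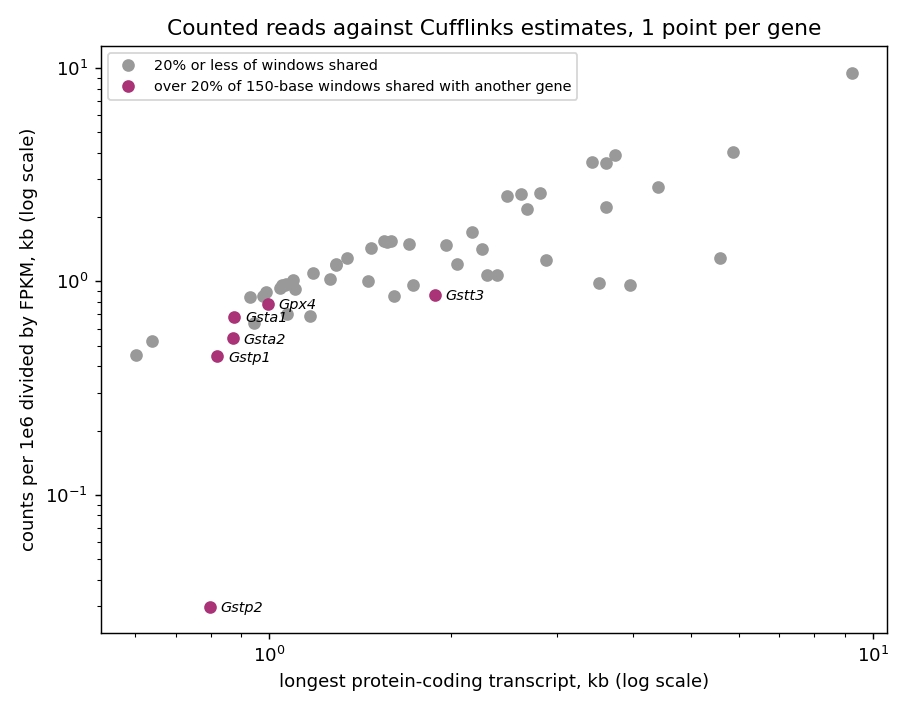
CPM divided by FPKM (in kb) against the length of the longest protein-coding transcript, both on log scales, with 1 point for each of the 54 members above 0. Points in purple share over 20% of their 150-base windows with another gene. Gstp2 lies far below the others, at 0.0299 kb, against 0.446 kb for Gstp1.

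The enzymes that remove superoxide and peroxide directly had a summed level of 386 ± 12.0 TPM in WT and 435 ± 38.5 TPM in DKO (SD, n = 3 each), and 0 of 4 were called. Sod1, the cytosolic dismutase, had 99.0, 88.4 and 92.5 CPM in the wild type and 103, 99.4 and 104 CPM in the knockout. The groups did not overlap but lay close (log2 fold change 0.13, SE 0.07, adjusted p = 0.364). Sod2, the mitochondrial dismutase, had 114, 134 and 114 CPM in the WT libraries and 117, 119 and 127 CPM in the DKO libraries. Its log2 fold change was 0.0046 (-0.0406 with total-count scaling), with an interval from -0.19 to 0.20. Catalase, Cat, which breaks down hydrogen peroxide in peroxisomes, had 68.9, 57.0 and 76.8 CPM in WT 1, 2 and 3 and 69.5, 58.3 and 57.8 CPM in DKO 1, 3 and 4, which overlapped.

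Among peroxiredoxins, which reduce peroxides through a reactive cysteine, and sulfiredoxin 0 of 7 were called and 6 of 7 lay above 0 (5 of 7 with total-count scaling or without DKO 4, which turned Prdx6). Prdx1 had the opposite sign, with 512, 415 and 450.5 CPM in the wild type and 412, 379 and 413 CPM in the knockout, groups apart by a small gap (log2 fold change -0.19, SE 0.11, edgeR adjusted p = 0.382). Without WT 1 the value was -0.10. Prdx5, found in mitochondria and peroxisomes, had 93.0, 105 and 101 CPM in WT libraries and 114, 118 and 113 CPM in DKO libraries, without overlap (0.21, SE 0.07, adjusted p = 0.177). Its exons overlap those of a neighbouring gene.

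Prdx2, abundant in red blood cells, had 192, 234 and 204 CPM in WT 1, 2 and 3 and 227, 227 and 230.5 CPM in DKO 1, 3 and 4. Exons of Prdx2 overlap those of Junb and Rnaseh2a on the opposite strand. The 7 erythroid markers summed to 140.5 to 435 CPM over WT and 134 to 392 CPM over DKO. Of the 6 tested, 0 lay above 0 and 0 were called, with a median log2 fold change of -0.30. Their part in the Prdx2 values was not tested. Prdx4, the peroxiredoxin of the endoplasmic reticulum, had 14.2, 17.3 and 16.3 CPM in WT and 23.2, 16.7 and 18.2 CPM in DKO, with DKO 1 the highest and the other two inside or near the WT range. Prdx3, Prdx6 and Srxn1, which repairs over-oxidised peroxiredoxins, had log2 fold changes from 0.02 to 0.09. The 7 genes summed to 1541 ± 72.3 TPM in WT and 1612 ± 129 TPM in DKO (SD, n = 3 each).

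The thioredoxin and glutaredoxin genes, which reduce disulfides in proteins, had small differences. Txn1, the cytosolic thioredoxin, had 107, 82.2 and 92.8 CPM in the wild type and 85.9, 92.0 and 100.5 CPM in the knockout. Txn2, the mitochondrial one, had 114, 125 and 114 CPM in the WT libraries and 116, 124 and 120.1 CPM in the DKO libraries. For both the groups overlapped, and the sign of both depended on the scaling. Txnrd1, which recharges Txn1, had 92.5, 109 and 101 CPM in WT 1, 2 and 3 and 114, 104 and 109.7 CPM in DKO 1, 3 and 4. Glrx, a cytosolic glutaredoxin that uses glutathione, had 22.6, 36.1 and 33.2 CPM in WT and 36.1, 36.9 and 30.8 CPM in DKO, with WT 1 standing below the rest. The log2 fold changes of the 6 genes ran from -0.02 to 0.18, and every interval lay within a 2-fold change. These intervals bound the size of any difference and do not show that the levels were equal.

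Of the regulators, Nfe2l2 had 215, 185 and 192 CPM in the wild type and 168, 164 and 172 CPM in the knockout. All DKO libraries were lower (log2 fold change -0.23, SE 0.08, interval -0.42 to -0.04, edgeR adjusted p = 0.203). Keap1 had a log2 fold change of 0.03 with an interval from -0.14 to 0.20. Nqo1, a quinone reductase widely used as an NRF2 target, lay above 48.5% of tested genes by its mean TPM in WT. It had 12.6, 12.1 and 13.6 CPM in WT libraries and 16.4, 11.5 and 16.6 CPM in DKO libraries, and its groups overlapped. Hmox1, the inducible heme oxygenase, had 115, 62.5 and 88.6 CPM in WT 1, 2 and 3 and 118, 59.0 and 95.2 CPM in DKO 1, 3 and 4. Both genotypes covered nearly the same range, lowest in WT 2 and DKO 3, and the sign of the difference depended on the scaling. Hmox2, the constitutive form, had 30.7, 30.1 and 31.4 CPM in WT and 33.5, 35.0 and 34.8 CPM in DKO, without overlap (0.16, adjusted p = 0.265), but its exons overlap those of Cdip1 on the opposite strand.

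Other genes of the pathway, in 5 lists apart from the members, also gave calls near the background. Of 74 tested, 1 fell and 0 rose at the threshold, against 0.306% and 0.734% of all tested genes. At an unadjusted p below 0.05 there were 16 of 74, against 18.0% of all tested genes, and 37 lay above 0. Genes are named because they were called or had 1 of the 2 smallest p of their list. Their gaps between groups partly follow from that choice. The one that fell was Abcc1, which exports glutathione and its conjugates, with 154, 144 and 124 CPM in the wild type and 101, 91.4 and 89.7 CPM in the knockout (log2 fold change -0.58, SE 0.10, edgeR adjusted p = 0.045). All DKO libraries lay below all WT libraries. The call ended whichever library was left out (adjusted p from 0.0522 to 0.185), and over all alternatives the adjusted p ran from 0.00013 to 0.191. Abcc4, a related exporter, had the opposite sign, with 46.3, 39.0 and 34.6 CPM in WT libraries and 58.5, 58.5 and 59.2 CPM in DKO libraries, and missed the threshold (0.55, SE 0.11, adjusted p = 0.0622). It passed with upper-quartile scaling (0.0499), without a low-count filter (0.0135), by DESeq2 (0.00166) and without WT 1 (0.0340).

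In the remaining 4 lists edgeR called 0 genes. Slc3a2, the partner chain of Slc7a11, had 199.9, 192 and 194 CPM in WT and 228, 267 and 286 CPM in DKO (edgeR adjusted p = 0.0959). Dpep1, which splits the cysteinyl-glycine that Ggt1 releases, had 52.8, 40.1 and 53.4 CPM and 70.7, 66.8 and 63.8 CPM (adjusted p = 0.111). Both were without overlap, as were 23.3% of all tested genes, and higher in the DKO libraries. Both passed by DESeq2 (adjusted p = 0.00524 and 0.0176), at a background of 5.52%. Dpep1 also passed without a low-count filter (0.0410). Glrx3, an iron-sulfur glutaredoxin, had 185, 107 and 144 CPM in WT 1, 2 and 3 and 101, 96.1 and 98.0 CPM in DKO 1, 3 and 4, all lower (log2 fold change -0.57, adjusted p = 0.164). It passed by DESeq2 (0.0379) and without WT 2 (0.0265), and its log2 fold change was -0.35 without WT 1. Msrb1, a methionine sulfoxide reductase, had a log2 fold change of 0.25 (adjusted p = 0.207).

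Of 9 genes that supply NADPH, the reductant of both routes, 3 lay above 0, with a median of -0.15. Idh2, the mitochondrial isocitrate dehydrogenase, had 66.7, 66.5 and 67.7 CPM in the wild type and 59.7, 57.4 and 61.6 CPM in the knockout, without overlap (adjusted p = 0.211), and Pgd of the pentose phosphate pathway had a log2 fold change of -0.29 (adjusted p = 0.341, and -0.17 without WT 1 and -0.19 without DKO 3). Of 10 tested NADPH oxidase genes, which make superoxide, 5 lay above 0. Cyba and Cybb, subunits of the phagocyte oxidase, had log2 fold changes of 0.43 and 0.56 (adjusted p = 0.191 and 0.247). The leukocyte marker sums are given above. The 8 neutrophil markers summed to 2.46 to 79.1 CPM over WT and 10.4 to 22.8 CPM over DKO. Of these, 0 of 7 tested lay above 0 and 0 were called. The part of either list was not tested. Without DKO 4 the value of Cybb was 0.32.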

How the data were processed

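RNA-seq libraries were made with the TruSeq RNA v2 kit, per the labels' protocols, which does not mark strand. The deposited counts are whole numbers per Ensembl gene, unnormalised, and the deposited FPKM values come, per the file headers, from Cufflinks tables of genes. Trimmomatic 0.32, Cufflinks 2.2, HTSeq and GRCm38 appear in the submitters' processing notes. The aligner and annotation release: not given in the sources used here. TPM was rescaled to 1e6 per library without 9 genes whose FPKM failed in some library, Amelx included. Its all-gene median differed by 0.08 (log2) between groups, with DKO 1 at 0.16 and WT 3 at -0.10 against the mean of all libraries.

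All 14721 genes passing filterByExpr were fitted with edgeR 4.0.16 in R 4.3.3 (quasi-likelihood, TMM, no covariate), with Benjamini-Hochberg adjustment over all of them. A standard error is the log2 fold change over the square root of F. DESeq2 1.42.0 and limma 3.58.1 served as alternatives. The fit was tested on simulated data. Genes shown by library were, per role group, the 2 most abundant by FPKM and the 2 with the smallest p, plus members called by DESeq2 or with a library left out. From each list of other pathway genes, the called ones and the 2 with the smallest p were named. Gss, Gstm2, Gsta1, Gsta2, Gsta3, Gstp1, Slc7a11, Gpx2, Gpx8, Mgst2 and Nqo1 were added after their values were seen. Members and lists were chosen with earlier results of these data known. Positions are GENCODE vM21 (GRCm38), promoters RefSeq. Replicates of a group correlated at 0.986 to 0.991 and differed by more than sampling noise.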

Additional observations from a re-analysis of the deposited data

How the results depend on the processing

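Every alternative left the median log2 fold change of the members between 0.02 and 0.11. The count of called members was 3 by the DESeq2 Wald test and 3 without a low-count filter (Ggt1, Gpx7 and Gsta4 in both), 2 with the replicate number as a block (Gss and Gsta4), 1 without DKO 3 and WT 2 together (Gsta4), a setting chosen after seeing the data, and 0 in the other 15, including each left-out library. Of all genes, 153 were called, against 554 without a low-count filter, 826 by DESeq2, 77 by limma on FPKM with either pseudocount, 11 by limma without an FPKM filter, 71 with a term for libraries with high Xist, and 21 to 335 with a library left out. The other pathway genes called were 1 in the fit reported, 2 with upper-quartile scaling, 3 without a low-count filter, 6 by DESeq2, 0 by limma on FPKM, 0 with the Xist term, 0 without DKO 3 and WT 2 together, and 0 to 1 with a library left out. Stim2 missed the threshold by limma without an FPKM filter (-1.31), with the Xist term (-1.13) and without DKO 1, DKO 3, DKO 4 or WT 3 (-0.96 to -1.18 over the left-out libraries). The causes were not tested.

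Of 54 tested members, 21 changed sign in some alternative, Gsr and Srxn1 with the replicate block alone: with total counts Gpx4 (-0.0026), Hmox1 (-0.0087), Keap1 (-0.0212), Prdx6 (-0.0252), Sod2 (-0.0406) and Txn2 (-0.0221), with upper-quartile scaling Glrx2 (0.0169) and Txn1 (0.0034), without a low-count filter Glrx2 (0.0006), by DESeq2 Glrx2 (0.0027), by limma on log2(FPKM + 1) Ggt5 (-0.132), Glrx2 (0.0618) and Txnrd2 (-0.0373), by limma on log2(FPKM + 0.1) Ggt5 (-0.1415), Glrx2 (0.0636) and Txnrd2 (-0.0435), by limma without an FPKM filter Ggt5 (-0.132), Glrx2 (0.0618) and Txnrd2 (-0.0373), without DKO 3 and WT 2 together Gpx4 (-0.0071), Gstt2 (-0.0342) and Mgst3 (0.0489), and with a library left out Glrx2 (from -0.0448 to 0.0277), Gsta2 (from -0.1638 to 1.3562), Hmox1 (from -0.1967 to 0.2698), Keap1 (from -0.0083 to 0.0645), Sod3 (from -0.936 to 0.2193), Txn1 (from -0.1069 to 0.0884), Gstk1 (from -0.0627 to 0.1954), Mgst2 (from -1.6777 to 0.0633), Mgst3 (from -0.1889 to 0.0193), Gstt2 (from -0.1037 to 0.2994), Prdx6 (from -0.0181 to 0.0652), Sod2 (from -0.0319 to 0.0861), Gstm5 (from -0.0007 to 0.2281), Gstp1 (from -0.1616 to 0.0436), Ggt5 (from -0.0174 to 0.3531), Gpx4 (from -0.0292 to 0.1284) and Gstt1 (from -0.3561 to 0.0507). The largest reported values among them were those of Gsta2 (0.73), Mgst2 (-0.46) and Sod3 (-0.28).

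The replicate numbers 1 and 3 occur in both groups. With the number as a block 328 genes (2.23%) were called, Gss (-0.67, adjusted p = 0.0311), Gsta4 (-2.79, 0.00858) and, of the other pathway genes, Glrx3 (-0.73, 0.0445) among them. The peroxidase median was 0.12, Gpx3 0.07 and Cybb 0.19, and Ggt5 (-0.0344), Glrx2 (0.0482), Gpx4 (-0.0718), Gsr (-0.011), Gsta2 (-0.2879), Gstt2 (-0.217), Hmox1 (-0.27), Prdx6 (-0.031) and Srxn1 (-0.0093) changed sign. Deviations from the group means correlated at 0.21 for number 1 and -0.03 for number 3, over 12146 genes, and at 0.29 for DKO 3 with WT 2 and 0.21 for DKO 4 with WT 3, so the numbers were not treated as pairs.

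Low counts limit Gsta1, Gsta2, Gsta3, Gstp2, Mgst2 and Sod3, each with no more than 9 counts in some library. Gsta1, Gsta3 and Mgst2 also varied widely between libraries, reaching 191, 649 and 103 counts in a WT library.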
